A study of Mus musculus with 12 samples.

Results

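The aldo-keto reductases described here are 7 mouse genes, Akr1c18, Akr1c12, Akr1c13, Akr1c14, Akr1c19, Akr1b8 and Akr1b10, measured in Min6 cells. They were chosen by gene symbol from a list of 9, as the rows of the expression table whose platform annotation gives exactly that symbol. The 2 others, Akr1b3 and Akr1b7, are not analysed here. Each of the 7 genes has 1 row, out of 19938 genes with such a row. Akr1c18 drew attention to the family through its difference between conditions in these same arrays. The differences of the 7 genes are therefore given as a description, without a test.

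Aldo-keto reductases reduce aldehydes and ketones to alcohols with NADPH, and many run in both directions on steroids. Mouse Akr1c18 is a 20α-hydroxysteroid dehydrogenase that turns progesterone into a weakly active alcohol, a step best known from the ovary at the end of the luteal phase. The Akr1b enzymes are relatives of aldose reductase and act on sugars and lipid aldehydes.

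Min6 cells come from a mouse insulinoma and are used as a model of the pancreatic beta cell. In the return condition (RC) the cells spent 5 days in serum medium at 20% oxygen, 5 days in serum-free medium at 5% oxygen and 5 final days back in serum medium at 20% oxygen. In the defined condition (DC) they stayed in the serum-free medium at 5% oxygen for the final 10 days, and in the classic condition (CC) they stayed in serum medium at 20% oxygen. The serum medium was DMEM with 15% fetal calf serum and 2-mercaptoethanol. The serum-free medium was DMEM-F12 supplied with progesterone at 20 nM, apo-transferrin at 100 µg/mL, selenite at 30 nM and putrescine at 100 µM, and both media held penicillin and streptomycin. Progesterone was thus added only together with the loss of serum, the change from DMEM to DMEM-F12, the lower oxygen and the other supplements. Only the serum medium is described with 2-mercaptoethanol. The parts of all these differences cannot be told apart. RC cells had met the progesterone medium for 5 days, and had left it 5 days before RNA was taken. Each condition has 4 arrays from 1 experiment with a single cell line, so errors cover the spread between these samples, which may be technical. A lower value in a bulk culture does not show whether fewer cells express a gene or each cell holds less of its RNA.

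Medians of the 12 arrays lay between 7.92 and 8.05 (log2 scale), and interquartile ranges between 2.42 and 2.75. Array RC 3 stood apart, with a mean correlation of 0.976 with the other RC arrays, whereas that of every other array with its own group was 0.989 to 0.995. CC 1 and CC 2 differed from CC 3 and CC 4 in several members, as given below. Of 16 measured beta cell markers, 15 had a mean above the median of all values (7.99), and their mean level per array was 11.5 to 11.7 in RC, 11.7 to 11.8 in DC and 11.6 in CC. Of 23 markers of fibroblasts, endothelium, immune, exocrine and ductal cells, 7 lay above that median, with mean levels per array of 7.39 to 7.73 in RC, 7.43 to 7.65 in DC and 7.32 to 7.500 in CC. Of the beta cell markers 3 (Pax6, Nkx2-2 and Slc30a8) rose in DC against CC and fell in RC against DC by the limma test described below, and none passed in RC against CC. In DC against CC Pax6 passed whichever array was left out, while Nkx2-2 did not without CC 1, CC 4 or DC 4, nor Slc30a8 without any one of 9 arrays, and neither passed with arrays centred on a common median (adjusted p = 0.053 for Nkx2-2 and 0.091 for Slc30a8). In RC against DC, 2 of the 3 beta cell markers still fell without RC 1, and 2 without RC 4. Of the markers of other cells none passed, with 3 at an unadjusted p under 0.05 in DC against CC and 0 in either RC comparison. All 23 had a positive difference in DC against CC, 0.07 to 0.23 with a median of 0.17, where the median of all rows was 0.04. Without DC 4 a single one, Cd68, rose in DC against CC. Their part in the results was not tested.

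In the reference genome 9 aldo-keto reductase genes stand side by side on chromosome 13, with no other protein-coding gene starting between them. Their order is Akr1c14, Akr1c18, Akr1c13, Akr1c19, Akr1c12, Akr1c6, Akr1c20, Akr1c21 and Akr1e1. The 5 Akr1c members are the first 5 of this row. Akr1b3, Akr1b8, Akr1b10 and Akr1b7 follow each other in the same way on chromosome 6. The promoters of the pair whose levels were highest in RC are shown first, as RefSeq windows of build GRCm38.p6 that run from 250 bases before the gene start to 50 bases after it. That of Akr1c18 is chr13:4150597-4150896 on the minus strand, and that of Akr1b8 is chr6:34353896-34354195 on the plus strand. Both are written 5′ to 3′, and capitals mark matches to the motifs described in the next paragraph.
Akr1c18: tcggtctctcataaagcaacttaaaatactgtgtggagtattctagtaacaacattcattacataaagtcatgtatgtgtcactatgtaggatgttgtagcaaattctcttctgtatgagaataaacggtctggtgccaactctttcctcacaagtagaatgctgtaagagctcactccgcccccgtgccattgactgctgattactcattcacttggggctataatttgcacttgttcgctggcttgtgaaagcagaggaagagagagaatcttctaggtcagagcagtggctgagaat
Akr1b8: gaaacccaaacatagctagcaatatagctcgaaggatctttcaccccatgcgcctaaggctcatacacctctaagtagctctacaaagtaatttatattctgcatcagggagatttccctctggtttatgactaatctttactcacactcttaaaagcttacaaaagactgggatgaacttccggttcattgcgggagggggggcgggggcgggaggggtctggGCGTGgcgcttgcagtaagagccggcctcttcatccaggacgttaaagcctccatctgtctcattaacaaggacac

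The motifs searched, on both strands, were the low-oxygen response cores ACGTG and GCGTG, which differ in their first letter only, the antioxidant response core TGACNNNGC and the steroid receptor core TGTTCT. The Akr1c18 window held none of these letters. The Akr1b8 window held GCGTG at position -26, counted from the gene start, and the Akr1c14 window held it at position 18. Akr1c19 held the antioxidant core from position 8, on the opposite strand. No member window held ACGTG or TGTTCT. Over 32851 mouse promoter windows of the same length, 19.6% held ACGTG, 32.4% GCGTG, 12.4% the antioxidant core and 19.0% TGTTCT. A match of letters is not a binding site, and a missing match speaks only of these letters in this window.

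Akr1c12 and Akr1c13 have nearly the same promoter. Of 304 aligned columns of their windows 284 were identical (93.4%), while the other 20 pairs of member windows had 41.4% to 58.8% identical columns. The highest of those was that of Akr1c13 with Akr1c19. The Akr1c12 window is chr13:4279350-4279649 on the minus strand and that of Akr1c13 is chr13:4190937-4191236 on the plus strand, and capitals mark the 16 bases of each that have no identical partner in the other.
Akr1c12: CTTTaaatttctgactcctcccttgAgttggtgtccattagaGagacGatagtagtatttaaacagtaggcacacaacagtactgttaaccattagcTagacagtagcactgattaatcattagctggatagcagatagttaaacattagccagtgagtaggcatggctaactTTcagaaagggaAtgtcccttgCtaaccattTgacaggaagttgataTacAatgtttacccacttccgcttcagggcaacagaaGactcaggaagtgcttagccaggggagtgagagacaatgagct
Akr1c13: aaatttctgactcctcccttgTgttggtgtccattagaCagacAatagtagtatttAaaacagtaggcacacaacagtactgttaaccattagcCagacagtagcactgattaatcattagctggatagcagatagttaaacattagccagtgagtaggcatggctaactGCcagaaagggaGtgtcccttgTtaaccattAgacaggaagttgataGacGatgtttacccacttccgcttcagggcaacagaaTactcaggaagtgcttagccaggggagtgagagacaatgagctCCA
The probe sequences were not used here, so how far an Akr1c12 transcript also bound the Akr1c13 probes, or those of another relative, was not tested.

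The question asked of each gene is whether its level differed between the conditions and whether it stood at the CC level again in RC. Values are the authors' deposited log2 expression values, and a difference of 1 is a doubling. Akr1c18 (probe set 10407435) had its highest levels after the return to serum. It read 9.32, 8.80, 8.72 and 9.09 in RC, 7.73, 7.005, 7.22 and 6.79 in DC, and 8.03, 7.84, 7.65 and 7.57 in CC. Every RC array lay above every DC and CC array, while DC 1 lay within the range of CC. The means were 8.98 ± 0.28 in RC, 7.19 ± 0.40 in DC and 7.77 ± 0.20 in CC (SD, n = 4 each).

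Akr1c18 was therefore 3.47-fold higher in RC than in DC, a difference of 1.79 ± 0.19 on the log2 scale (SE from the limma fit over all arrays). It was 2.31-fold higher in RC than in CC (1.21 ± 0.19). In DC it was lower than in CC by a log2 difference of -0.59 ± 0.19, with a 95% interval of -0.998 to -0.18. Ordered by difference among all 35556 rows, Akr1c18 came 5th from the top for RC against DC and 2nd for RC against CC, behind a row with no gene symbol. The CC arrays differed among themselves, and against CC 3 and CC 4 alone the difference of DC was -0.43, against CC 1 and CC 2 alone -0.75. With the interquartile range of each array as a covariate it was -0.29.

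**Figure D1:**
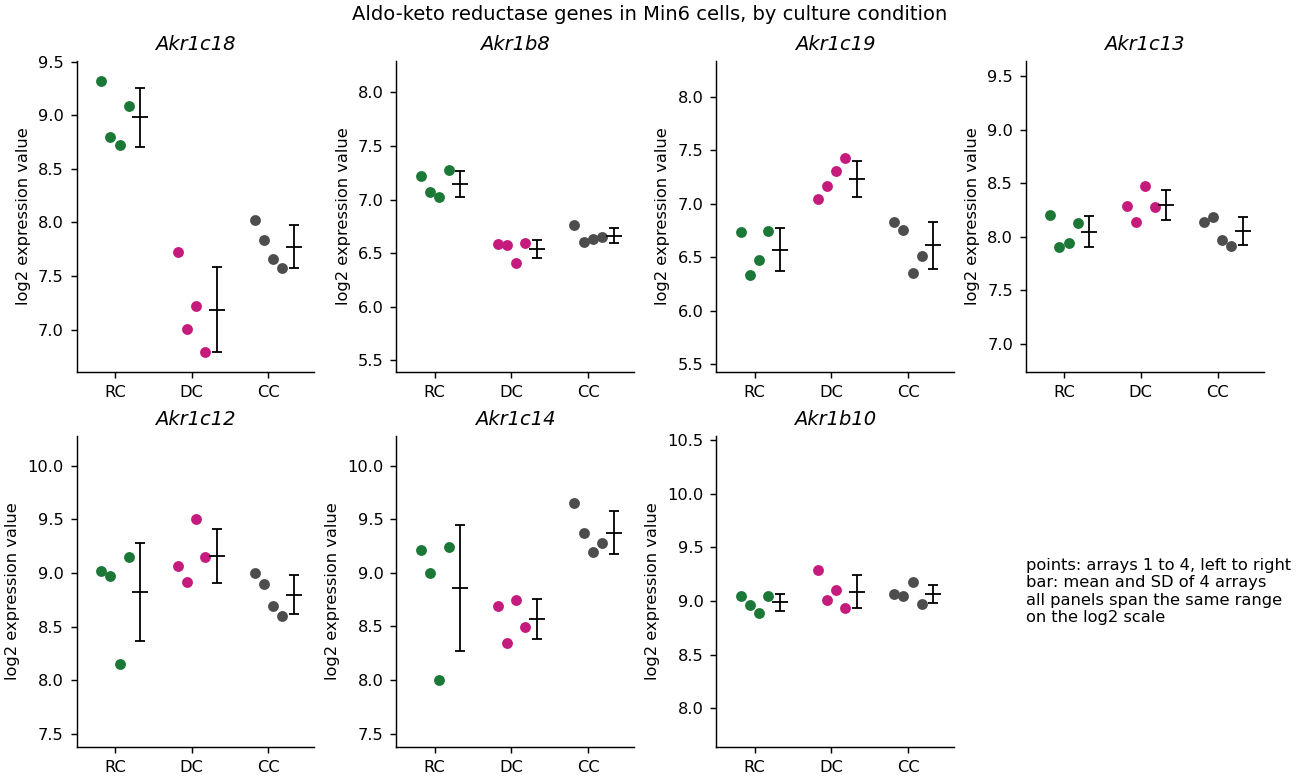
Log2 expression values of the 7 aldo-keto reductase genes on each array, with RC, DC and CC from left to right, and mean ± SD of 4 arrays as black bars. Akr1c18 and Akr1b8 are highest on all 4 RC arrays, Akr1c19 is highest on all 4 DC arrays, and Akr1c14 and Akr1c12 have 1 low RC array (RC 3).

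Akr1b8, an aldose reductase relative first described as induced by fibroblast growth factor, had the same order of conditions (probe set 10537146). It read 7.22, 7.07, 7.03 and 7.28 in RC, 6.58, 6.57, 6.41 and 6.59 in DC, and 6.77, 6.60, 6.63 and 6.65 in CC. The RC arrays again lay above all others, and all DC arrays lay just below the CC arrays. In RC it was higher than in DC by 0.61 ± 0.07 (log2, 1.52-fold) and higher than in CC by 0.48 ± 0.07 (1.40-fold). For DC against CC it was -0.12 ± 0.07, with a 95% interval of -0.28 to 0.03. Its mean over all arrays was higher than that of 26.2% of rows, and detection calls were not used here.

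Akr1c19, a less studied member of the Akr1c group, had another order, with its highest values in DC (probe set 10403312). It read 6.74, 6.33, 6.47 and 6.74 in RC, 7.04, 7.16, 7.30 and 7.43 in DC, and 6.83, 6.76, 6.35 and 6.51 in CC. All DC arrays lay above all RC and CC arrays, and RC and CC overlapped. In DC it was higher than in CC by 0.62 ± 0.13 (log2, 1.54-fold). RC differed from DC by -0.66 ± 0.13, and from CC by -0.04 ± 0.13 with a 95% interval of -0.32 to 0.24. Against CC 1 and CC 2 alone the DC difference was 0.44, and against CC 3 and CC 4 alone 0.80. Like Akr1b8, the gene had a low mean over all arrays, higher than that of 26.5% of rows, and detection calls were not used.

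Akr1c13 and Akr1c12, dehydrogenases less well characterised than Akr1c18, had their highest means in DC as Akr1c19 did, but with groups that overlapped. Akr1c13 (probe set 10403303) read 8.21, 7.90, 7.95 and 8.13 in RC, 8.28, 8.14, 8.48 and 8.28 in DC, and 8.13, 8.19, 7.97 and 7.91 in CC. Akr1c12 (probe set 10407445) read 9.01, 8.97, 8.15 and 9.15 in RC, 9.06, 8.92, 9.51 and 9.15 in DC, and 9.004, 8.90, 8.70 and 8.60 in CC. In both genes DC overlapped with RC and with CC, and RC 3 was the lowest array for Akr1c12.

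The log2 difference of Akr1c13 was 0.24 ± 0.09 for DC against CC (95% interval 0.04 to 0.45) and -0.25 ± 0.09 for RC against DC. Akr1c12 differed by 0.36 ± 0.20 and -0.34 ± 0.20 in the same comparisons. Without RC 3 the Akr1c12 difference of RC against DC was -0.11. Between RC and CC the values were -0.01 ± 0.09 for Akr1c13 and 0.02 ± 0.20 for Akr1c12 (0.25 without RC 3).

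Akr1c14, a 3α-hydroxysteroid dehydrogenase that acts on reduced steroids, was lowest in DC (probe set 10403291). It read 9.21, 8.998, 7.997 and 9.24 in RC, 8.69, 8.34, 8.75 and 8.50 in DC, and 9.65, 9.37, 9.20 and 9.28 in CC. All DC arrays lay below all CC arrays. RC 1 and RC 4 lay within the range of CC, RC 2 between DC and CC, and RC 3 below every DC array. The log2 difference of DC against CC was -0.81 ± 0.23, a 1.75-fold lower level. Against CC 1 and CC 2 alone it was -0.95, and against CC 3 and CC 4 alone -0.67. RC against DC gave 0.29 ± 0.23, and 0.58 without RC 3. RC against CC gave -0.52 ± 0.23, and -0.23 without RC 3.

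Akr1b10, another aldose reductase relative and the neighbour of Akr1b8, stood apart in no condition (probe set 10537157). It read 9.05, 8.97, 8.89 and 9.05 in RC, 9.29, 9.01, 9.10 and 8.93 in DC, and 9.07, 9.05, 9.18 and 8.97 in CC. The groups overlapped in every comparison. Its 95% interval was -0.25 to 0.10 in RC against CC, -0.27 to 0.08 in RC against DC and -0.16 to 0.19 in DC against CC (log2 differences).

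**Figure D2:**
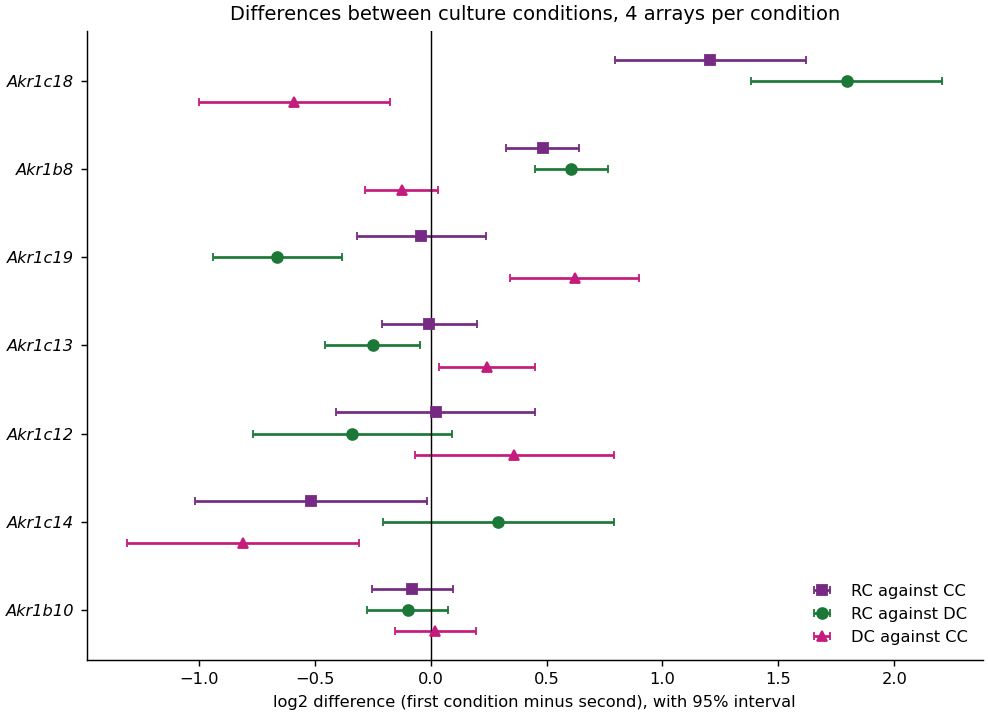
Log2 difference of each aldo-keto reductase gene for RC against CC, RC against DC and DC against CC, with 95% intervals from the limma fit. Akr1c18 and Akr1b8 lie to the right of 0 in both RC comparisons, Akr1c19 to the right for DC against CC and to the left for RC against DC, and all intervals of Akr1b10 and Akr1c12 include 0.

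Over all 35556 rows, 0.796% passed the test for RC against CC (adjusted p under 0.05), 2.63% for RC against DC and 6.64% for DC against CC. Of the 7 genes 2 were among these rows for RC against CC (Akr1c18 and Akr1b8), 3 in RC against DC (these and Akr1c19) and 1 in DC against CC (Akr1c19). Groups did not overlap for 2, 3 and 3 of the 7 genes in the same comparisons, while 7.94%, 6.29% and 15.3% of all rows had groups that did not overlap. Since the genes were chosen with these values known, nothing is read from the counts. The same holds for which of the 7 genes passed, here and in the refits. Such calls place the genes among all rows and are no test of them. In RC against CC neither gene passed when CC 3, CC 4 or RC 1 was left out, although the log2 differences stayed at 1.10 or above for Akr1c18 and 0.44 or above for Akr1b8. Without RC 3, Akr1c14 passed in DC against CC and in RC against DC. Without DC 1, Akr1c18 passed in DC against CC. Akr1c19 missed the threshold in RC against DC without DC 3 or RC 2. The median difference of the 7 genes was -0.01 for RC against CC, -0.10 in RC against DC and 0.02 in DC against CC, and over all rows it was 0.03, -0.01 and 0.04. Any 2 of the comparisons share the arrays of 1 condition.

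**Figure D3:**
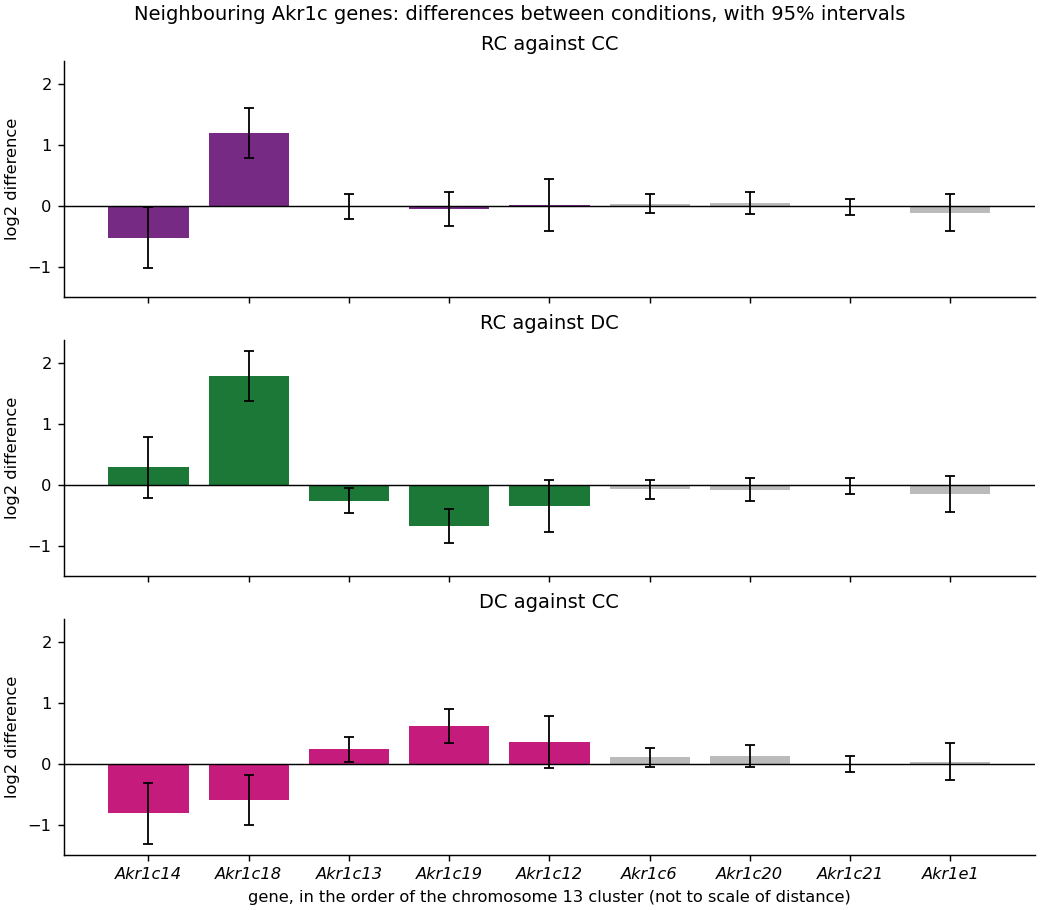
Log2 differences with 95% intervals for the 9 neighbouring aldo-keto reductase genes in their order on chromosome 13. Bars are coloured for the 5 Akr1c members and grey for the other 4, with RC against CC at the top, RC against DC in the middle and DC against CC below. For DC against CC the bars of Akr1c14 and Akr1c18 lie below 0 and those of Akr1c13, Akr1c19 and Akr1c12 above it, with an interval that includes 0 for Akr1c12, while the grey bars lie between -0.14 and 0.13 in the 3 panels.

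Along the chromosome 13 row the DC against CC difference was -0.81 for Akr1c14, -0.59 for Akr1c18, 0.24 for Akr1c13, 0.62 for Akr1c19 and 0.36 for Akr1c12. Groups overlapped for Akr1c18, Akr1c13 and Akr1c12, and the interval of Akr1c12 included 0. The sign did not follow the strand, since Akr1c18 and Akr1c12 lie on the minus strand and Akr1c14, Akr1c13 and Akr1c19 on the plus strand. Over the 12 arrays the values of Akr1c18 and Akr1b8, which lie on different chromosomes, had a Pearson correlation of 0.93. Akr1c13 correlated with Akr1c19 at 0.87 and with Akr1c12 at 0.78. Akr1c18 correlated with Akr1c19 at -0.61 and with its neighbour Akr1c14 at 0.25. These correlations describe values that share arrays and 3 conditions.

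Of the other aldo-keto reductases, 11 were measured: Akr1a1, Akr1c6, Akr1c20, Akr1c21, Akr1cl, Akr1d1, Akr1e1, Akr7a5 and the potassium channel subunits Kcnab1, Kcnab2 and Kcnab3, which belong to the same superfamily. None passed the limma test in any comparison. Over all rows, 0.796% passed for RC against CC, 2.63% in RC against DC and 6.64% in DC against CC. These shares stand beside the counts of the lists below as well. At an unadjusted p under 0.05 there were 0 for RC against CC, 1 in RC against DC (Kcnab2) and 2 in DC against CC (Akr1d1 and Kcnab2). Kcnab2 was at 9.35 ± 0.05 in RC and 9.12 ± 0.05 in DC (SD, n = 4), with an adjusted p = 0.099. Akr1d1, a 5β-reductase of steroids known from liver, was at 6.36 ± 0.12 in DC and 6.14 ± 0.06 in CC, with an adjusted p = 0.078, and passed without DC 1. Across the 11 genes the log2 differences spanned -0.10 to 0.08 in RC against CC, -0.14 to 0.23 in RC against DC and -0.16 to 0.22 in DC against CC.

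Most other enzymes that oxidise or reduce steroids did not pass, as was so over all rows. Of 21 measured steroid dehydrogenases and reductases outside the aldo-keto reductases, 1 rose and 2 fell in DC against CC, with a median difference of 0.08. Hsd17b12, which also serves fatty acid elongation, was at 11.18, 11.18, 10.92 and 11.33 in RC, 10.68, 10.35, 10.70 and 10.36 in DC and 11.38, 11.23, 11.57 and 11.50 in CC. It fell in DC against CC (-0.90 ± 0.11; limma adjusted p = 0.000395) and rose in RC against DC (0.63 ± 0.11; adjusted p = 0.0089). Hsd17b11, a lipid droplet enzyme, fell in DC against CC (-0.75 ± 0.09; adjusted p = 0.00028) and in RC against CC (-0.50 ± 0.09; adjusted p = 0.030). That last call was lost without any single CC array, RC 1 or RC 2 (adjusted p up to 0.105).

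Hsd17b7, which reduces oestrone and also serves cholesterol synthesis, rose in DC against CC (0.66 ± 0.12; adjusted p = 0.0039). It fell in RC against DC (-0.56 ± 0.12; adjusted p = 0.021), a call lost without DC 3, RC 1, RC 2 or RC 4 (up to 0.069). In this list 1 rose and 1 fell in RC against DC, and 1 fell in RC against CC, with medians of -0.01 and 0.07. Without RC 3 a further gene rose in DC against CC. Of 9 measured genes of steroid synthesis by cytochromes P450, from the cholesterol carrier Star to Cyp21a1, none passed in any comparison (0, 0 and 0 by limma, with 1, 0 and 3 at an unadjusted p under 0.05 for RC against CC, RC against DC and DC against CC). Stard3, a cholesterol carrier of late endosomes, was at 9.47 ± 0.13 in RC and 9.73 ± 0.08 in CC (SD, n = 4; adjusted p = 0.195). Cyp11a1, the side-chain cleavage enzyme, was at 6.97 ± 0.08 in DC and 6.66 ± 0.16 in CC (adjusted p = 0.166). Without RC 3 Stard3 fell in RC against CC and Cyp11a1 rose in DC against CC.

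Among 14 measured progesterone receptors and binding proteins, 1 passed in each comparison, and it was Paqr9, a membrane progesterone receptor. Paqr9 read 9.45, 9.34, 9.40 and 9.45 in RC, 8.83, 8.75, 8.89 and 8.72 in DC, and 9.73, 9.68, 9.83 and 9.69 in CC. No groups overlapped, and RC lay between DC and CC. It fell in DC against CC (-0.93 ± 0.06; limma adjusted p = 2.72e-06), rose in RC against DC (0.61 ± 0.06; adjusted p = 0.000143) and was lower in RC than in CC (-0.32 ± 0.06; adjusted p = 0.032). The last call was lost without any single CC array, RC 1, RC 2 or RC 4 (up to 0.120), and with quantile normalization (adjusted p = 0.062) or a replicate block. With quantile normalization Fkbp5, a co-chaperone of steroid receptors, rose in DC against CC (adjusted p = 0.019). The nuclear progesterone receptor gene Pgr was at 7.42 ± 0.14 in RC, 7.49 ± 0.12 in DC and 7.30 ± 0.12 in CC (SD, n = 4), and did not pass (adjusted p = 0.73 for RC against CC, 0.86 in RC against DC and 0.23 in DC against CC). The heme-binding Pgrmc1 was at 10.17 ± 0.04 in RC, 9.98 ± 0.18 in DC and 10.17 ± 0.05 in CC and did not pass either, except that it fell in DC against CC without DC 3. Pgr and Pgrmc1 were singled out after their values were seen.

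**Figure D4:**
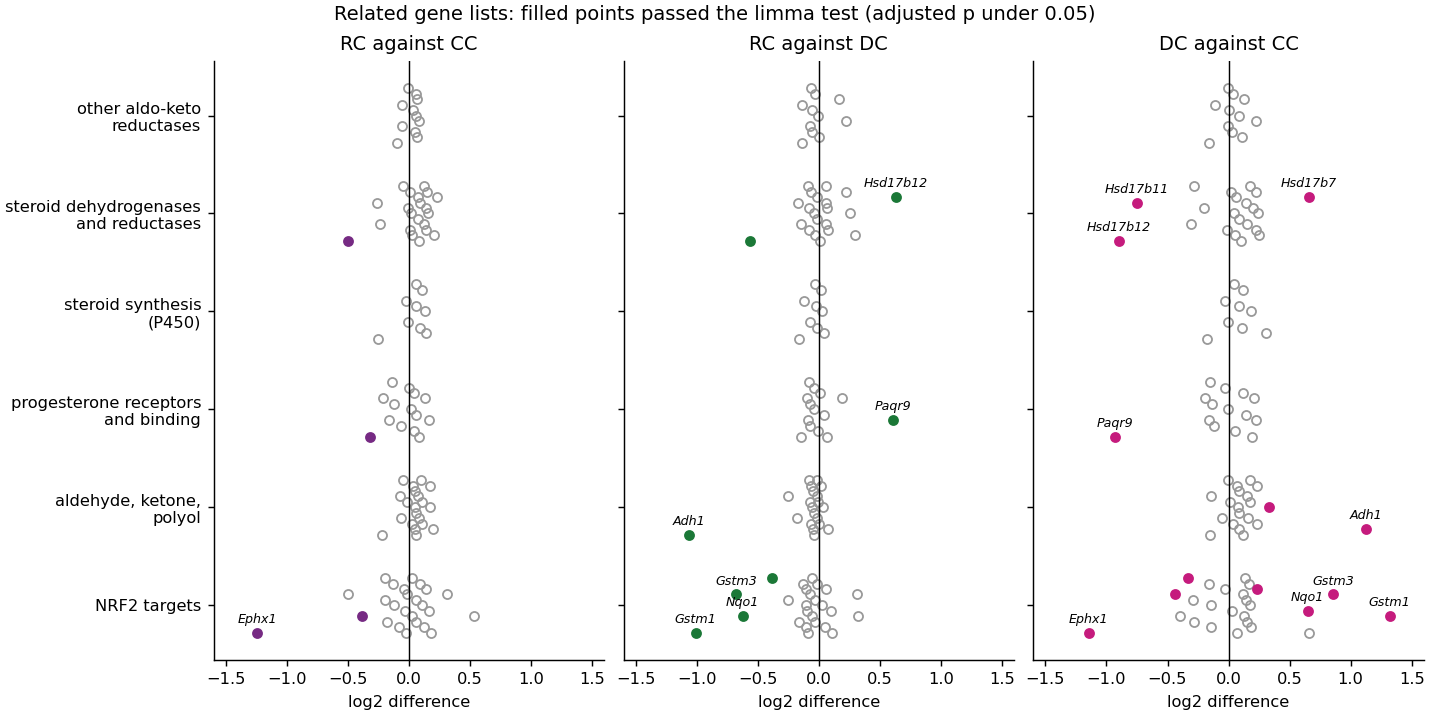
Log2 differences of 100 genes in 6 related lists, with RC against CC on the left, RC against DC in the middle and DC against CC on the right, and filled points where the limma adjusted p is under 0.05. Symbols are given for filled points beyond 0.6 in either direction, and the other aldo-keto reductases in the top line have no filled point.

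Genes of aldehyde, ketone and polyol metabolism were mostly without a call. Of 20 measured, 2 rose in DC against CC, 1 fell in RC against DC and 0 passed in RC against CC, where 2 had an unadjusted p under 0.05. Adh1, the alcohol dehydrogenase that also oxidises retinol, was at 9.60, 9.26, 9.33 and 9.48 in RC, 10.14, 10.56, 10.84 and 10.40 in DC, and 9.58, 9.53, 9.15 and 9.20 in CC. It rose in DC against CC (1.12 ± 0.15, 2.18-fold; limma adjusted p = 0.00050) and fell in RC against DC (-1.07 ± 0.15; adjusted p = 0.0016). Like Akr1c19, it was highest in DC. Khk, the fructose kinase, rose in DC against CC (0.33 ± 0.07; adjusted p = 0.0086). In RC against DC Khk missed the threshold (-0.26 ± 0.07; adjusted p = 0.066), but it passed with centred arrays (0.046), with quantile normalization (0.017) and without CC 2 or RC 3, which made 2 falls. In RC against CC the smallest p belonged to Dcxr, a reductase of L-xylulose, at 9.31 ± 0.13 in RC and 9.54 ± 0.04 in CC (adjusted p = 0.285).

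NRF2 is a transcription factor that switches on genes of redox defence and detoxification, several aldo-keto reductases among them in mouse and human. Of 25 measured NRF2 targets outside the family, 4 rose and 3 fell in DC against CC. Gstm1 (1.32 ± 0.13, 2.49-fold; adjusted p = 7.6e-05) and Gstm3 (0.86 ± 0.08), glutathione transferases of similar sequence whose probes may share signal, rose with the quinone reductase Nqo1 (0.65 ± 0.14; adjusted p = 0.015) and the biliverdin reductase Blvrb (0.23 ± 0.06; adjusted p = 0.048). The epoxide hydrolase Ephx1 fell (-1.15 ± 0.12, 2.21-fold lower; adjusted p = 8.7e-05), as did the exporter Abcc4 (-0.44 ± 0.06) and the thioredoxin reductase Txnrd1 (-0.33 ± 0.08; adjusted p = 0.025). The call of Nqo1 was lost without CC 4 (adjusted p = 0.051), that of Txnrd1 without CC 1, CC 2, DC 2 or DC 4 (up to 0.090) and that of Blvrb without any single array except DC 2 and RC 3 (up to 0.124), and with centred arrays (0.166). Falls numbered 2 without CC 1, CC 2, DC 2 or DC 4, and rises 2 without CC 4. With quantile normalization Hmox1, Tkt and Ftl1 rose as well.

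In RC against DC 4 of these genes fell and none rose: Gstm1 (-1.01 ± 0.13), Gstm3 (-0.68 ± 0.08), Nqo1 (-0.62 ± 0.14; adjusted p = 0.037) and the transketolase Tkt (-0.38 ± 0.06). Nqo1 did not pass without DC 2, DC 3, DC 4, RC 1, RC 2 or RC 4 (up to 0.126), nor with arrays centred on a common median (adjusted p = 0.077). Without RC 3, 2 genes rose, Txnrd1 and Prdx1. With quantile normalization Txnrd1 rose and Abcc1 fell. In RC against CC 2 fell, Ephx1 (-1.25 ± 0.12; adjusted p = 0.00049) and Abcc4 (-0.39 ± 0.06; adjusted p = 0.013, and up to 0.061 without CC 4 or RC 1). Without DC 4 there were 3 falls, with the cystine transporter Slc7a11, and 1 rise, of the heme oxygenase Hmox1. Gstm1, Gstm3 and Nqo1 thus had their highest means in DC, as Akr1c19 did. The same held for listed genes without a call, such as Me1 and Cat. Txnrd1, Abcc4, Srxn1, Gsr, Taldo1 and Prdx1 had their lowest means in DC, and Ephx1, Slc7a11, Gclc and Pgd their highest in CC. Of the members, Akr1c18, Akr1b8 and Akr1c14 had their lowest means in DC. A link of the NRF2 targets with Akr1c19 or another member was not tested. Ephx1, at 8.82 ± 0.19 in RC, 8.92 ± 0.21 in DC and 10.07 ± 0.13 in CC (SD, n = 4), stayed low after the return.

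The genes whose 12 values were most like those of Akr1c18 were looked for among 973 rows with 1 symbol whose condition means spanned at least 0.5. The 8 most alike, by Pearson correlation, were Cpeb2 (0.97), Ppargc1a (0.96), Shisal2b (0.96), Chml (0.95), S100a10 (0.95), Idh3a (0.94), Anxa3 (0.94) and Opn3 (0.94). Each had its highest mean in RC and its lowest in DC, an order that choosing by correlation with Akr1c18 favours. The span was smaller than that of Akr1c18 in each: RC against DC gave 0.55 for Cpeb2 and 1.04 for Opn3, the lowest and the highest of the 8, where Akr1c18 gave 1.79. Ppargc1a, a coactivator of mitochondrial gene expression, was at 8.54 ± 0.11 in RC, 7.86 ± 0.13 in DC and 7.94 ± 0.11 in CC. Opn3, an opsin gene, was at 10.59 ± 0.08 in RC, 9.55 ± 0.36 in DC and 9.77 ± 0.04 in CC (SD, n = 4). By rank correlation 4 of the 8 were the same.

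**Figure D5:**
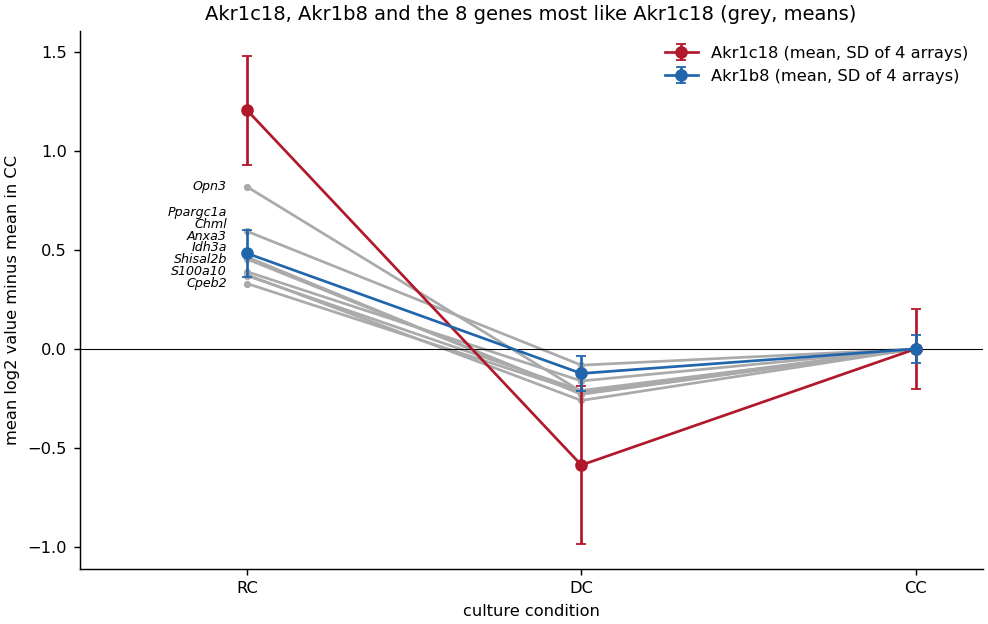
Mean log2 value in RC, DC and CC minus the mean in CC, for Akr1c18 (red) and Akr1b8 (blue) with SD of 4 arrays, and for the 8 genes most like Akr1c18 (grey, names at the left). All 10 lines are highest in RC and lowest in DC, and that of Akr1c18 spans the widest range, 1.79.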

How the data were processed

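Total RNA of Min6 cells was labelled as biotinylated cDNA and hybridised to 1 array per sample, per the labels' protocols. The values are the authors' deposited log2 expression values, 1 per probe set and array, for 35556 rows. The log2 scale was read from their range, 3.69 to 14.5, and for the summarisation, the normalization and the build nothing is stated in the sources used here. Precision is limited by how many arrays there are, and no background signal was used.

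Rows were named through the platform annotation, in which 21789 rows carry 1 symbol, 1621 several and 12146 none. With limma 3.58.1 in R 4.3.3, a mean for each condition was estimated from the 12 arrays together (9 residual degrees of freedom), without further normalization. The two-sided p-values were corrected over the 35556 rows (Benjamini-Hochberg, threshold 0.05). The fit was tested on simulated data. Where a gene has several rows, the row of highest mean was used. The genes, lists and tests were chosen with earlier results of these data known. All members are named, as are the 8 genes most correlated with Akr1c18. From each list and comparison, up to 4 called genes with the largest change are named. Where 5 or fewer passed all are named, and where none did the 2 of smallest p. Of the NRF2 targets in DC against CC all called genes are named. Others, such as genes called only in a refit or given for their order of conditions, were named outside this rule with their values seen. Promoter windows are from RefSeq (GRCm38.p6), held 7 of 7 members, and were aligned globally with Biopython 1.88 (match 1, mismatch -1, gap opening -3, extension -0.5). Alternatives comprised 22 refits, among them other scalings, array weights, filters, a replicate block and each array left out in turn.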

Additional observations from a re-analysis of the deposited data

Results flagged for a closer look

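Within groups of 4 arrays, a single array stood far from the other 3 in 3 of the 105 groups examined (the 7 members and the named genes of the lists), where chance gives about 5% of groups. Akr1b8 read 6.41 on DC 3 and 6.57 to 6.59 on the other DC arrays. Cyp11b1 read 6.77 on DC 3 and 6.96 to 6.99 on the others. Pdgfrb, a fibroblast marker, read 7.99 on RC 3 and 7.61 to 7.64 on the other RC arrays.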

How the results depend on the processing

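The log2 differences of Akr1c18 kept their direction under the 21 of 22 alternatives that hold its row, which falls among the dim rows left out in the other. With each array left out in turn they ranged from 1.10 to 1.29 for RC against CC, 1.66 to 1.97 for RC against DC and -0.77 to -0.46 for DC against CC. With the interquartile range of the arrays as a covariate, the DC against CC difference of Akr1c18 became -0.29, that of Akr1c12 0.65 and that of Akr1c14 -0.45.

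The number of the 7 members past the threshold ranged over left-out arrays from 0 to 2 (RC against CC), 2 to 4 (RC against DC) and 1 to 2 (DC against CC). It was 0 for RC against CC and for RC against DC when dim rows were left out, a filter that removed Akr1c18, Akr1b8 and Akr1c19 themselves and kept the other 4 members. It was 0 for RC against CC without CC 1 and CC 2, and 0 for RC against CC and DC against CC without CC 3 and CC 4. For DC against CC it was 5 with array weights, 3 with the interquartile-range covariate, and 2 with only the groups compared or with the replicate block. In the same order, these settings called 4840, 2456, 2608 and 1852 of all 35556 rows. Nothing is read from these member counts either. Over all rows, 283 passed for RC against CC (57 to 352 over left-out arrays), 936 in RC against DC (522 to 2892) and 2360 in DC against CC (1549 to 3718). Array weights gave 2818, 6413 and 4840 rows, and the interquartile range as a covariate 636 and 1737 for the RC comparisons with CC and DC. RC against DC gave 462 rows with only the groups compared, and RC against CC 439 without dim rows. Without CC 1 and CC 2 there were 23 (RC against CC) and 991 (DC against CC), and without CC 3 and CC 4 there were 18 and 1568.

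In the 6 related lists together 4 genes passed for RC against CC (1 to 6 over left-out arrays), 8 in RC against DC (6 to 11) and 13 in DC against CC (11 to 16). Array weights gave 15, 20 and 22, the covariate 13 in RC against DC and 20 in DC against CC, and either pair of CC arrays left out gave 1 for RC against CC. Rank correlation kept 4 of the 8 genes most like Akr1c18. The causes of these shifts were not tested. Where arrays or rows were left out, their smaller number is part of the change in setting, and its share was not tested either.

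Deviations of same-numbered arrays from their condition means correlated from -0.36 to 0.47, and not every array correlated best with its own number. In RC against CC the arrays numbered 1 (0.47) and those numbered 3 (0.32) were each other's best partners, and those numbered 2 and 4 were not. With 4 arrays per condition, whether the numbers mark a pairing cannot be told. The replicate block gave 68 rows and 1 list gene for RC against CC.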
